A study of Mus musculus with 3 samples.

Results

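Oxidative phosphorylation subunits are the proteins of the respiratory chain and of ATP synthase. The transcripts of 84 nuclear genes for these subunits were followed in J1 mouse embryonic stem cells (mESCs), out of 20608 named genes measured. The genes were chosen by symbol: Nduf subunits of complex I, Sdh subunits of complex II, Uqcr subunits of complex III, Cox4 to Cox8 subunits of complex IV and Atp5 subunits of complex V, with pseudogenes left out. That rule uses no measured value, though it was set with earlier results of these data known. RefSeq lists 85 such genes, and Ndufb1 was the only member without a matched probe on the array. The 84 genes were read by 113 of the 55681 non-control probes.

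The 3 samples formed 1 group. They were J1 mESCs, a line of strain 129S4/SvJae whose labels give inner cell mass as the tissue, grown with 1000 U/mL leukemia inhibitory factor (LIF) and treated for 24 h with 1 µM PD0325901 (PD), an inhibitor of the kinase MEK. Each RNA was labelled with Cy3 and hybridised to its own Agilent mouse expression array. All 3 arrays were on 1 slide and in 1 scan, so neither could differ between samples. Cells without PD were not analysed here, and all results below are therefore levels and spreads within this group. Every embryonic stem cell marker on the list (10 of 10, among them Pou5f1, Sox2, Klf4 and Esrrb) was detected on all arrays, as were 5 of 10 fibroblast markers and 9 of 10 primitive endoderm markers, beside 72.8% of all named genes. Processed signals, in intensity units, had a 75th percentile of 619, 578 and 594 on replicates 1 to 3, respectively, and 0 spots were saturated.

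In the inner mitochondrial membrane, complexes I and II pass electrons from NADH and succinate to ubiquinone, complex III hands them to cytochrome c and complex IV reduces oxygen. Complexes I, III and IV pump protons, and complex V, the ATP synthase, uses the returning protons to make ATP. Most subunits are encoded in the nucleus, and some of complex IV exist as paralogous isoforms used in muscle, testis or lung. Nuclear respiratory factor NRF1, the ETS factor GABPA and YY1 are known regulators of many of these genes. Embryonic stem cells are known to rely heavily on glycolysis while keeping a working respiratory chain.

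Promoter windows of 8 members are printed first, since they show motif matches found in some of these genes, and the isoform pairs described below. They were chosen after the matches and levels were known. Each holds 250 bases before and 50 bases after the annotated RNA start, 5′ to 3′ along the gene, from RefSeq on build GRCm38.p6. Capitals mark matches to the NRF1 motif, the ETS motif CCGGAAG, the YY1 motif AAGATGGCG, the motif TCAAGGTCA of the receptors ESRRA and ESRRB, and TATAAA, each on either strand. Cox6a1, the ubiquitous isoform of a complex IV subunit, lies at chr5:115348909-115349208 (minus strand) and holds the NRF1 motif and an ETS motif. Ndufs7, a core subunit of complex I, lies at chr10:80249199-80249498 (plus strand) and holds TATAAA and, after the RNA start, the YY1 motif. Atp5j, a stalk subunit of complex V, lies at chr16:84834927-84835226 (minus strand) and holds YY1 and ETS matches before the start. Sdhd, a membrane anchor of complex II, lies at chr9:50603800-50604099 (minus strand) with an ETS match and a match for ESRRA and ESRRB. Cox8a, the ubiquitous form of subunit 8 of complex IV, lies at chr19:7217567-7217866 (minus strand) and has 2 ETS matches, whereas its heart and muscle paralogue Cox8b at chr7:140900397-140900696 (minus strand) has TATAAA alone. The TATAAA of Cox8b begins at base 5 after the RNA start, and that of Ndufs7 begins 99 bases before the start. Cox7a2, the ubiquitous form of subunit 7a, lies at chr9:79759804-79760103 (minus strand), and its heart and muscle paralogue Cox7a1 lies at chr7:30183921-30184220 (plus strand), and neither window has any of these 5 motifs.
Cox6a1: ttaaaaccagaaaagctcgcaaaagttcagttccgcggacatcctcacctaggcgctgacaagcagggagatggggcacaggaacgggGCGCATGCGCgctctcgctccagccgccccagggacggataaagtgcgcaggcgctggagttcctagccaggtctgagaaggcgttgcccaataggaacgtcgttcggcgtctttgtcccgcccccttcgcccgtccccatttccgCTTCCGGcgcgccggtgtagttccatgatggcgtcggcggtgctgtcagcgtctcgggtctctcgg
Ndufs7: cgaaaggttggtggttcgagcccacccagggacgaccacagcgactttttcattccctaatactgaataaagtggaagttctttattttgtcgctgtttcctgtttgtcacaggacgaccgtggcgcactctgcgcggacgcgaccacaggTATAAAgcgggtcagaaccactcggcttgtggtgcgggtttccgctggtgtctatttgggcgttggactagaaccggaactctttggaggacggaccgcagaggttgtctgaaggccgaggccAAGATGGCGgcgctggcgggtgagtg
Atp5j: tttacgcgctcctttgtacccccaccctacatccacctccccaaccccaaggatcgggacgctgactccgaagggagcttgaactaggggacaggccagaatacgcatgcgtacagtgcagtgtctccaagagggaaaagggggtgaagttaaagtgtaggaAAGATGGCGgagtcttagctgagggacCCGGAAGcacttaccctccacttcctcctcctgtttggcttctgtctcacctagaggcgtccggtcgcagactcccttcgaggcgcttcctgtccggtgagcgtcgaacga
Sdhd: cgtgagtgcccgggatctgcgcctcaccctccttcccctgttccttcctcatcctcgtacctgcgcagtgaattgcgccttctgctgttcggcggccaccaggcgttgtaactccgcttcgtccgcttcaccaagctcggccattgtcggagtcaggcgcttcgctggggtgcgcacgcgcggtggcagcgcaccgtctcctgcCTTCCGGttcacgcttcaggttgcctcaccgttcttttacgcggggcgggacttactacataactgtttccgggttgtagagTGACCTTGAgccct
Cox7a1: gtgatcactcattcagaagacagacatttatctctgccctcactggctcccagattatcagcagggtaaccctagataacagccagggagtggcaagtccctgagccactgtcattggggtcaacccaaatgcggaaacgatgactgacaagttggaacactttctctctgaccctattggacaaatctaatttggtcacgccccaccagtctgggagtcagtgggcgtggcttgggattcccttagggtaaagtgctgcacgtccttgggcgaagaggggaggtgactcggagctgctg
Cox7a2: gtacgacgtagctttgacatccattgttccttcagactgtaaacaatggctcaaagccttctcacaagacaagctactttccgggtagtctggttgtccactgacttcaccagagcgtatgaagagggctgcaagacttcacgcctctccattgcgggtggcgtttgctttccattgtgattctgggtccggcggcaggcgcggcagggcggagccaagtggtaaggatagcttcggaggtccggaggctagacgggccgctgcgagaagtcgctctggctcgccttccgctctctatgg
Cox8a: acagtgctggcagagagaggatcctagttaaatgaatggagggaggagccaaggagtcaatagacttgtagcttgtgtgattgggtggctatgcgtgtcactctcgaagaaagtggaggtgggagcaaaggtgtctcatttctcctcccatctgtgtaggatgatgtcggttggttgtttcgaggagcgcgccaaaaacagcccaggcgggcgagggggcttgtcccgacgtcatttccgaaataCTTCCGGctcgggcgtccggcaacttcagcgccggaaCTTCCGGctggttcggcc
Cox8b: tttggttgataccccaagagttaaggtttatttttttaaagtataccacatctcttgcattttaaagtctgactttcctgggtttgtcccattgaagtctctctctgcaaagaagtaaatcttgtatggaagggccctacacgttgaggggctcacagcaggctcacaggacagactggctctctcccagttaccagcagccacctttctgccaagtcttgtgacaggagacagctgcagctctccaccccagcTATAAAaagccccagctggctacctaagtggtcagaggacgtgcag

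The plain letter matches were counted over 74 windows of 69 members and over all 32851 windows of the same length, while 15 members had no window. The NRF1 motif stood in 6.76% of the members' windows (5 genes, Atp5g2, Atp5k, Cox6a1, Ndufa11 and Uqcrc1) and in 0.971% of all windows. The ETS motif stood in 23.0% of the members' windows (17 genes) and in 8.86% of all windows. The YY1 motif stood in 9.46% of the members' windows (7 genes) and in 1.40% of all windows. At least 1 of these 3 motifs was found in 26 of the 69 genes, that is in 35.1% of their windows against 10.8% of all windows. The match for ESRRA and ESRRB stood in 2.70% of the members' windows (Atp5g3 and Sdhd) and in 0.423% of all. By contrast the SP1 motif GGGCGG (40.5% against 35.7%), CCAAT (41.9% against 37.4%) and TATAAA (12.2% against 13.6%) were about as frequent in the members as in all windows. No motif searched contains another, though the ETS motif ends and the YY1 motif begins with AAG. A match is a run of letters and not a measured site, and these shares were not tested.

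**Figure D1:**
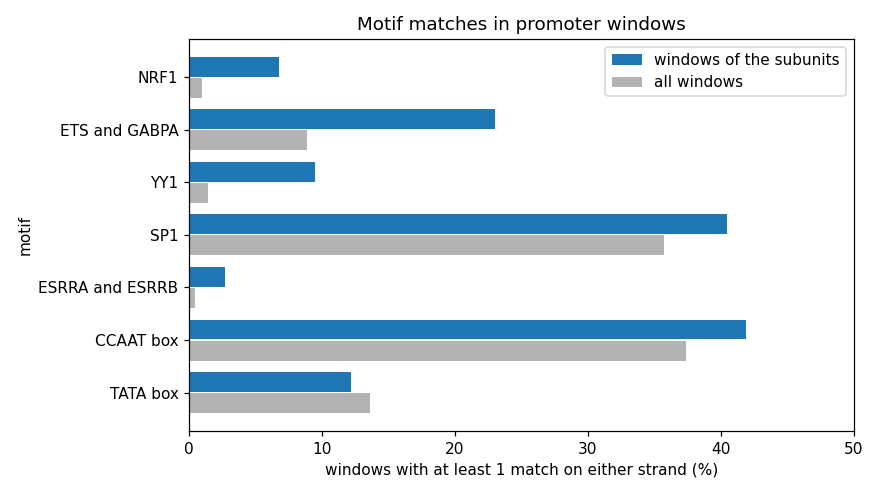
Percentage of promoter windows with at least 1 match on either strand (x axis) for 7 motifs (y axis), in 74 windows of the subunits (blue) and in all 32851 windows (grey). The NRF1, ETS, YY1 and ESRR motifs had the longer blue bars relative to grey, and the SP1, CCAAT and TATA bars were of similar length.

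The place of the YY1 motif was also shared. In 6 of its 7 member windows it read along the gene and began after the RNA start, at base 23 in Ndufc1, 24 in Atp5j2, 25 in Ndufs7, 30 in Ndufa9, 34 in Ndufs6 and 36 in Ndufs4. In Atp5j it began 88 bases before the start. Of the 477 YY1 matches over all windows, 43.8% lay after the start in that orientation. The members' windows had a median GC content of 57.5% (43.3% to 77%) and a median of 19 CpG dinucleotides, against 52.7% and 7 over all windows. The 4 windows of tissue-specific isoforms that could be read (Cox6b2, Cox7a1, Cox7b2 and Cox8b) held 2 to 10 CpG, whereas the other 70 held 5 to 43. Of the 74 windows, 23 (31.1%, 21 genes) overlapped the window of another gene on the opposite strand, against 10.8% of all windows. Among those neighbours were Gabpa beside Atp5j, Mrpl47 (a mitochondrial ribosomal protein) beside Ndufb5, Timm8b (a mitochondrial import factor) beside Sdhd and Rps28 (a cytosolic ribosomal protein) beside Ndufa7. Windows of 1 gene and overlapping windows share letters, so they are not independent.

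On the arrays, 83 of 84 members were detected on all 3, which means that the probe was flagged well above background on each. The background is high, since 72.8% of all named genes were detected in the same way (15006 of 20608). Counted by probe, 112 of the 113 were detected on all arrays. The exception was Cox8b, a muscle and heart isoform of complex IV. Levels are given as the log2 processed signal minus the 75th percentile of the array, so 0 is that percentile. The median level of the detected members was 5.79, beside 0.44 over all detected named genes, and 78 of 83 members (94.0%) were in the top 25% of levels, which began at 2.62. Their mean signals spanned 104 to 212582. A level depends also on the sequence of its probe, so an order of levels between genes is not an order of transcript amounts and was not tested. In such bulk samples fewer cells of a type and less RNA per cell cannot be told apart.

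**Figure D2:**
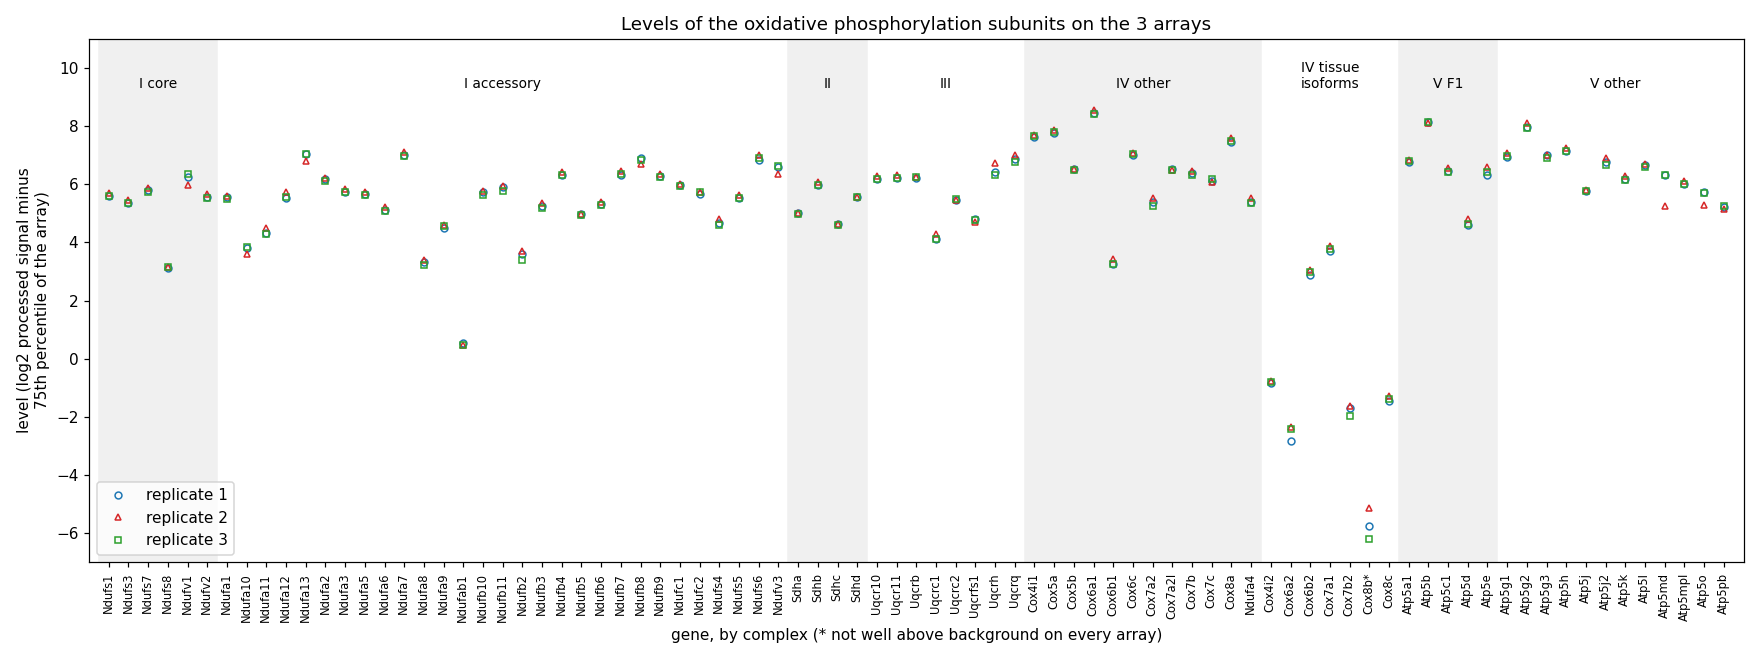
Level of each of 83 of the genes (y axis, log2 processed signal minus the 75th percentile of the array) on replicate 1 (circles), replicate 2 (triangles) and replicate 3 (squares), grouped by complex along the x axis. Most points of a gene overlie each other, and the triangle of Atp5md sits apart from its other points. The 7 tissue isoforms of complex IV have mean levels over the arrays from −5.71 to 3.78.

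Complex I had 36 of 36 members detected, with a median level of 5.62 (0.49 to 7.04). Its 7 nuclear core subunits carry the flavin and the iron-sulfur clusters or form the path to ubiquinone. Ndufs1, the largest of them and a holder of iron-sulfur clusters, had levels of 5.60, 5.70 and 5.61 on replicates 1, 2 and 3. Ndufs3 gave 5.37, 5.45 and 5.34. Ndufs7 and Ndufs8 hold the last clusters before ubiquinone. Levels of Ndufs7 were 5.81, 5.85 and 5.75. For Ndufs8 they were 3.13, 3.14 and 3.16, with an SD of 0.016 (n = 3) and a range of 0.03, which was 0.12 with the median of the array as the scale. Ndufv1, which binds NADH and flavin, gave 6.26, 5.99 and 6.34, the widest of the core subunits with an SD of 0.183. Its partner Ndufv2 gave 5.56, 5.65 and 5.52. The 3 arrays thus differed by at most 0.35 log2 units in any core subunit.

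The 29 accessory subunits of complex I, which surround the core, had a median level of 5.67. Ndufab1, the acyl carrier protein, had levels of 0.54, 0.46 and 0.47, and apart from 4 tissue isoforms it was the only detected member with a mean level outside the top 25% of all detected genes. Ndufa7 gave 7.0, 7.12 and 6.99. In 23 of the 29, replicate 2 was the highest array. That share was 45.1% over all detected genes and 54.9% over those in the top 25% of levels. Replicate 2 was the lowest in 5 of the 29, which besides Ndufab1 were Ndufv3 (6.58, 6.35 and 6.63), Ndufa13 (7.03, 6.81 and 7.03), Ndufb8 (6.91, 6.70 and 6.83) and Ndufa10 (3.79, 3.61 and 3.83). SDs of the accessory subunits ran from 0.029 to 0.153.

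Complex II, succinate dehydrogenase, had all 4 subunits detected, with SDs of 0.007 to 0.056. Sdha, the flavoprotein, had levels of 5.0, 5.0 and 4.97. Sdhb, the iron-sulfur subunit, gave 5.98, 6.07 and 5.97. The membrane anchor Sdhc gave 4.62, 4.62 and 4.60. The other anchor, Sdhd, gave 5.56, 5.57 and 5.58. The median SD of these 4 genes was 0.014, beside 0.054 for all detected genes in the top 25% of levels. This small spread depended on the scale. The ranges of Sdha, Sdhc and Sdhd over the arrays were 0.03, 0.02 and 0.01 log2 units, but 0.07, 0.08 and 0.11 with the median of the array as the scale, whereas that of Sdhb went from 0.10 to 0.04. Without the marked blocks of replicate 2, described below, another probe stood for Sdhc and its range was 0.10.

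All 8 measured members of complex III were detected, with a median level of 6.22 (4.16 to 6.88). The core proteins were Uqcrc1, at 4.10, 4.28 and 4.10, and Uqcrc2, at 5.44, 5.45 and 5.48. The Rieske iron-sulfur protein Uqcrfs1 had 4.80, 4.70 and 4.77. Uqcrh, the hinge protein at the cytochrome c site, had 6.40, 6.74 and 6.31, with replicate 2 above both others. A second probe of Uqcrh, elsewhere on the array, gave 5.63, 5.86 and 5.58, again with replicate 2 highest. The small subunits varied less. Uqcrb, at the ubiquinone-binding site, gave 6.21, 6.24 and 6.24. Uqcrq gave 6.88, 7.01 and 6.75. The 2 smallest, Uqcr10 and Uqcr11, gave 6.19, 6.28 and 6.18, and 6.21, 6.33 and 6.20. For Uqcrh no gene named Uqcrhl was among the members measured.

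Uqcrc2 was the only member whose probe had 10 spots on each array, so its arrays could be compared against the error of the spots. The SD over spots was 0.048, 0.054 and 0.048 on the 3 arrays. By the moderated F test of limma the arrays did not differ past the threshold (adjusted p = 0.430), while 36.6% of the 284 probes tested that way did. With the median of the array as the scale instead of the 75th percentile, the same test gave an adjusted p of 0.000162. That test concerns these 3 hybridised samples and the spread between spots, not a condition.

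Complex IV, cytochrome c oxidase, had 18 of 19 members detected, with Ndufa4 counted here as a subunit of it. The 12 members without a tissue restriction had a median level of 6.51 (3.30 to 8.48). Cox4i1, the ubiquitous regulatory subunit 4, had levels of 7.61, 7.69 and 7.65. Cox6a1 had 8.46, 8.55 and 8.41, a mean signal of 212582. Cox6b1, at the cytochrome c docking side, had 3.26, 3.41 and 3.24. Cox7a2 gave 5.40, 5.54 and 5.26, and Cox7a2l, its relative that takes part in joining complexes III and IV, gave 6.53, 6.50 and 6.48. Cox7b gave 6.37, 6.45 and 6.33. Cox8a gave 7.46, 7.60 and 7.49. Ndufa4 gave 5.40, 5.53 and 5.34, and its paralogue Ndufa4l2, which is outside the chosen set, was also detected on all arrays (mean level 2.47 ± 0.10, SD, n = 3). The arrays differed by 0.05 to 0.28 log2 units in these members.

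Of the 7 tissue-specific isoforms of complex IV, 6 (85.7%) were detected on every array, beside 72.8% of all named genes. Cox7a1, the heart and muscle isoform of subunit 7a, had levels of 3.69, 3.89 and 3.77 and signals of 7995, 8580 and 8115. Cox6b2, the testis isoform of subunit 6b, had levels of 2.87, 3.05 and 3.00 and signals of 4516, 4771 and 4743. The arrays lay within 0.20 and 0.18 log2 units of each other for these genes. Cox4i2, the lung isoform, had levels of −0.84, −0.78 and −0.80 and signals of 346, 336 and 342. Cox8c, a testis isoform, had levels of −1.44, −1.27 and −1.40. Cox7b2, another testis isoform, had levels of −1.69, −1.62 and −1.98. Cox6a2, the heart and muscle isoform of subunit 6a, had levels of −2.85, −2.34 and −2.40 and signals of 86.0, 114 and 112, so replicate 1 was the low array. Cox8b had levels of −5.75, −5.15 and −6.21 and signals of 11.5, 16.3 and 8.01, and was not well above background on replicate 3. The lowest signal flagged well above background was 10.1, 11.4 and 10.3 on the 3 arrays, so Cox8b lay at the limit of detection.

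Markers of the tissues that use these isoforms were read on the same arrays. Of 14 striated muscle markers, 9 were detected (64.3%, beside 72.8% of all named genes), with a summed signal of 1537 to 1667 per array over all 14. Ckm, Myog, Myod1, Myh1 and Myh2 were detected on no array, with mean signals of 2.28 to 5.01. The 9 detected were Myh6 and Myh7, heart myosins, at mean signals of 705 and 265, and Acta1, Tnni3, Tnni2, Myh4, Mb, Tnnt2 and Tnnt3 at 176 down to 19.9. Of 12 spermatid and spermatocyte markers, 9 were detected, with a summed signal of 1975 to 2047, of which Sycp3, a meiotic chromosome protein, gave 1262. The protamines Prm1 and Prm2 were detected at mean signals of 115 and 44.6, and Odf1, Acrv1 and Spata19 were not detected on any array. Of 6 lung markers, 3 were detected, with a summed signal of 331 to 371. They were the surfactant gene Sftpd, at a mean signal of 292, Scgb1a1 at 34.2 and Ager at 17.7. The other surfactant genes listed, Sftpa1, Sftpb and Sftpc, were not detected on any array. The part of other cell types in the isoform signals was not tested.

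Complex V had all 17 members detected, with a median level of 6.48 (4.67 to 8.12). Its catalytic head F1 holds the subunits alpha to epsilon. Atp5a1 (alpha) had levels of 6.75, 6.82 and 6.78. Atp5b (beta, the catalytic subunit) had 8.13, 8.10 and 8.13. Atp5c1 (gamma, the rotating shaft), Atp5d (delta) and Atp5e (epsilon) had mean levels of 6.48, 4.67 and 6.45 with SDs of 0.065, 0.110 and 0.151. The ring subunit c, which turns with the proton flow, is made from 3 paralogous genes that encode the same mature protein, and all 3 were detected. Atp5g1 gave 6.92, 7.06 and 6.96. Atp5g2 gave 7.98, 8.12 and 7.94. Atp5g3 gave 7.0, 7.02 and 6.92. Atp5l (subunit g) was read by 5 probes, all detected, with mean levels of 4.96 to 6.65.

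Spread between the arrays was small for most of the 83 detected members. Their median SD was 0.065 log2 units, beside 0.073 over all detected named genes and 0.054 over those in the top 25% of levels, where the median of the 78 members was 0.064. Its order against all genes was not stable. It was 0.077 against 0.066 without replicate 1, 0.029 against 0.051 without replicate 2, 0.066 against 0.065 without replicate 3 and 0.072 against 0.065 with normexp background correction. An SD under 0.1 was found in 61 members and an SD of 0.1 or more in 22. The same count was not made over all genes. In the top 5% of levels, which held 58 members, the 90th percentile of the SD over all detected genes was 0.110. The highest and lowest arrays were more than 0.5 log2 units apart in 2 members, Atp5md and Cox6a2. That happened in 6.24% of all detected genes. In the top 25% of levels it happened in 1.95% of all genes and in 1 of the 78 members. Cox6a2 passed the limit narrowly, with a range of 0.51, and fell to 0.49 with quantile normalization. With 3 arrays each SD is itself imprecise.

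**Figure D3:**
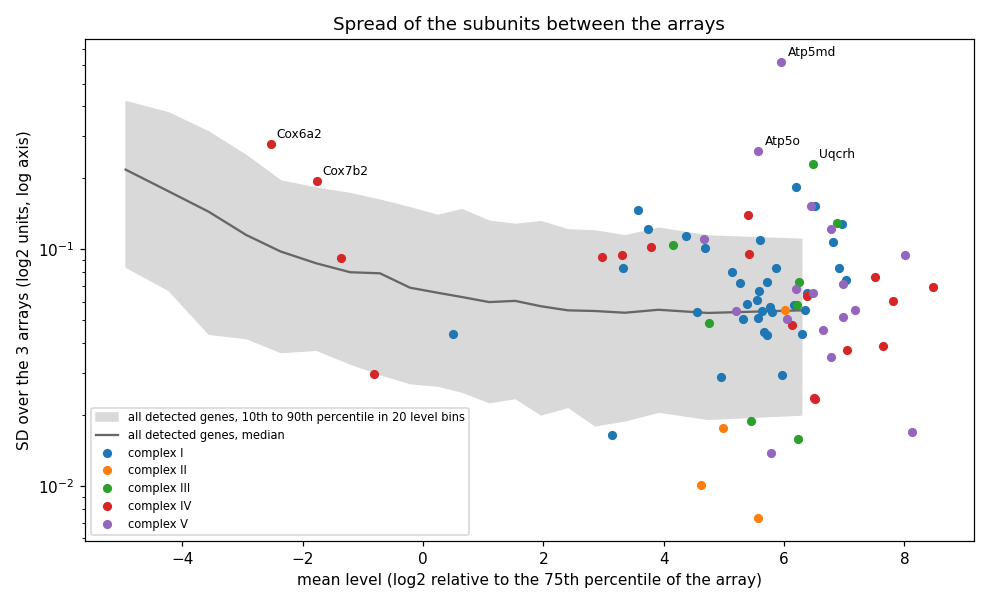
SD over the 3 arrays (y axis, log2 units on a log axis) against mean level (x axis, log2 relative to the 75th percentile of the array) for 82 detected members, coloured by complex. The grey band and line give the 10th to 90th percentile and the median of all detected genes in 20 bins of level. The 5 named members have the largest SDs, and the 4 complex II points are among the lower ones.

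Atp5md, a small membrane subunit of ATP synthase, had the largest SD, 0.618. Its levels were 6.32, 5.24 and 6.31, so replicates 1 and 3 agreed within 0.01 log2 units and replicate 2 was lower by 1.07 than their mean. Of the members detected on all arrays, Cox6a2 came next with an SD of 0.277, while Cox8b, near background, had 0.533. Atp5o, the stalk subunit that joins F1 to the membrane part, gave 5.74, 5.28 and 5.70 (SD 0.258), again with replicate 2 low. Uqcrh had an SD of 0.229 with replicate 2 high, and Cox7b2 one of 0.193 with replicate 3 low. Atp5k, subunit e of complex V, was read at different places on the array. Its probe in row 301 gave 6.30, 5.86 and 6.29, whereas its probe in row 115 gave 6.18, 6.27 and 6.14, so replicate 2 was low on the first and high on the second.

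Replicate 2 was also the highest array for most members. It was highest in 62 of the 83, in the middle in 8 and lowest in 13, while replicate 2 was highest in 45.1% of all detected genes. The share of all genes depended on level. It was 54.9% in the top 25% of levels, where 58 of 78 members had replicate 2 highest, and 65.2% in the top 5%, where 44 of 58 members did. Replicate 2 exceeded the mean of replicates 1 and 3 by a median of 0.095 log2 units in the members and by 0.027 over all detected genes. In the top 5% these medians were 0.091 and 0.058. The difference was above 0 in 67 members (80.7%) and below 0 in 16, and it was above 0 in 59.5% of all detected genes. Scaling by the median of the array gave 0.017 for the members and −0.051 over all genes, with 49 members (59.0%) above 0 and 34 below, and 31.9% of all genes above 0. Quantile normalization gave 0.052 and 0.016. The distance of the members from 0 thus depended on the scale. Each sample had 1 array, so a difference between cultures and between hybridisations cannot be told apart.

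**Figure D4:**
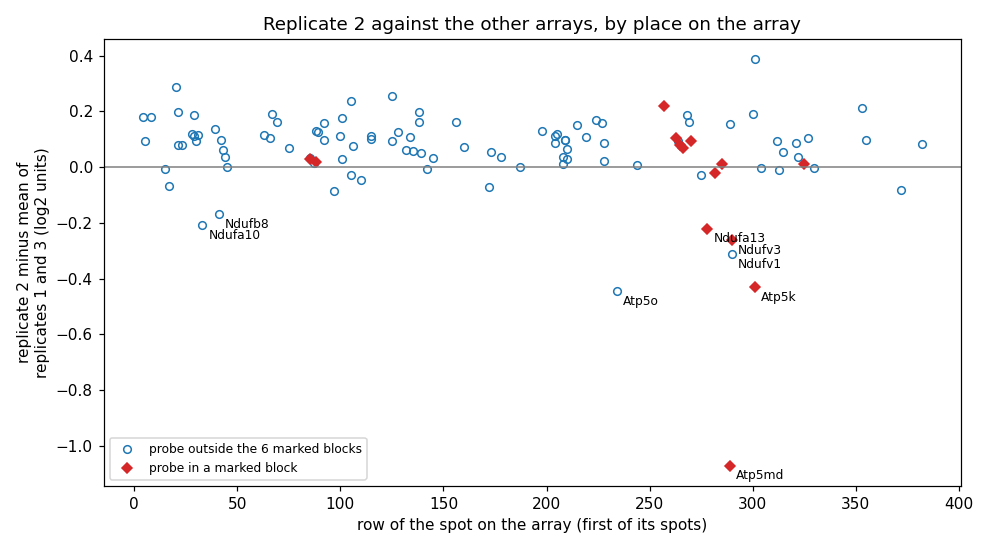
Level on replicate 2 minus the mean of replicates 1 and 3 (y axis, log2 units) for 111 member probes detected on all arrays, against the row of the spot on the array (x axis). Red diamonds are probes in the 6 blocks of replicate 2 with many non-uniform spots. Most points lie a little above 0, and of the 8 named low probes 5 lie in rows 278 to 301.

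Several members with low values on replicate 2 lay near each other on the array. Feature Extraction called 187 spots of replicate 2 non-uniform, against 25 and 8 on replicates 1 and 3, and 148 of the 187 fell in 6 of the 48 blocks into which the array was divided. Those blocks held 9 of the 83 detected members, beside 12.0% of all detected genes. Within them replicate 2 was above the mean of the other arrays in 5 members and below in 4. Outside them it was above that mean in 62 and below in 12. The median difference was 0.012 for the members inside and 0.096 outside, beside 0.023 and 0.028 over all detected genes. Over all detected genes the median SD was 0.101 inside and 0.070 outside. A range above 0.5 log2 units was found in 282 of the 1806 genes inside and in 654 of the 13200 outside. Replicate 2 was the lowest array in 646 of those inside and in 3615 of those outside. Atp5md, Ndufv3, Ndufa13 and the low probe of Atp5k were in such blocks. Ndufv1 in row 290 and Atp5o in row 234 were low on replicate 2 outside them. When the probes in marked blocks were left out, 76 members could still be read, Sdhc and Ndufv3 among them by another probe, and 1 had a range over 0.5 log2 units. Whether the surface of the array had a part in these values was not tested beyond that.

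Several probes read 22 of the members, and 62 members had a single probe. The probes of a gene were within 1 log2 unit of each other in mean level in 9 of the 22, and more than 2 units apart in 5. These were Ndufb11 (7.73 apart), Cox7c (7.14), Ndufv3 (5.57), Ndufb5 (3.12) and Cox7a2l (2.41). The brightest probe on average stood for each member, so for these 5 genes the level rests on that choice. In Cox7c, a small subunit of complex IV, 2 probes gave mean levels of 6.13 and 6.12 and the other −1.01. Many subunit genes have processed pseudogenes, and 14 RefSeq pseudogene symbols match the same names, with 0 probes of their own on the array. Whether the probes also bound RNA from such copies was not tested.

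Other genes of the pathway were read as lists. Electron carriers and related genes (Uqcc1, Uqcc2, Uqcc3 and Atpif1 among them) were detected in 8 of 8 cases, beside 72.8% of all named genes. Their median level was 4.38. Cyc1, the cytochrome c1 of complex III, had a mean level of 6.12 ± 0.06 (SD, n = 3). Somatic cytochrome c, Cycs, had 4.56 ± 0.01, and the testis form Cyct had 3.52 ± 0.04. Atpif1, the inhibitor of ATP synthase, had 7.43 ± 0.07. Assembly factors were detected in 39 of 40 cases, beside the same 72.8%, with a median level of 2.35. The exception was Lyrm7, a complex III factor (mean signal 3.85). Among the detected assembly factors 1 gene had a range above 0.5 log2 units, beside 6.24% of all detected genes. It was Nubpl, an iron-sulfur factor for complex I, with levels of 2.86, 1.85 and 2.79. Its probe lay in a marked block of replicate 2, as did those of Sdhaf2, Atpaf2 and Tmem70, which were also lowest on replicate 2. Of all 1806 detected genes in those blocks, replicate 2 was lowest in 646 and highest in 798. Outside those blocks replicate 2 was lowest in some assembly factors, such as Sco1 (−0.70, −0.98 and −0.66), and highest in others, such as Ecsit (4.97, 5.15 and 5.05). The mitochondrially encoded subunits, listed under 26 names with 2 names per gene, matched no probe, so the subunits made in the organelle were not analysed here.

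Regulators of respiratory genes were detected in 12 of 13 cases (beside 72.8% of all named genes), with a median level of 2.26. The factors whose motifs are capitalised above were among them. Nrf1 had a mean level of 0.78 ± 0.07, Gabpa 2.24 ± 0.02, Yy1 2.27 ± 0.05 and Esrra 2.84 ± 0.01 (SD, n = 3). Esrrb, which is also a pluripotency factor of mESCs, had 6.10 ± 0.10. The coactivator gene Ppargc1a was not detected on any array (mean signal 2.43), while its relatives Ppargc1b and Pprc1 were, at −2.02 ± 0.04 and 1.26 ± 0.06. Tfam, which packages mitochondrial DNA, had 3.51 ± 0.10. Of the carriers, Slc25a4 and Slc25a5, which exchange ADP and ATP, had 5.82 ± 0.02 and 5.81 ± 0.04, and the uncoupling protein genes Ucp1, Ucp2 and Ucp3 were all detected, Ucp1 at a mean signal of 19.5.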

How the data were processed

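RNA of the 3 samples was measured on 1-colour Agilent arrays. The authors deposited spot intensities from Agilent Feature Extraction 10.7.3.1, which subtracts the background within each array, with flags per spot. The authors also deposited a log2 table, with its normalization not given in the sources used here, which served as an alternative. The array grid refers to mm9. Probes were named by their accession, without versions, through the RefSeq table of GRCm38.p6, which matched 27235 of 55681 probes to 20660 genes, and 20608 of them had an unflagged spot on every array. The level was log2 of the processed signal, averaged over a probe's unflagged spots, relative to the array's 75th percentile over non-control spots. Detection required that 50% of a probe's spots were well above background. For a gene with several probes, the probe with the highest mean was used. No column of per-sample values was left unmapped. For 1 member, counted in the totals, values are not reported here and the figures leave it out.

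Members and gene lists were chosen with earlier results of these data known. Named are isoform families, complex I core, complexes II and III, undetected members and those with the 5 largest SDs, a range above 0.5 log2 units or a passed test. A few further members and pathway genes were named after their values were seen. Per the methods, the samples came from independent experiments, and the labels give only replicate numbers. SDs are over 3 arrays. Spots of 10-spot probes were tested with limma 3.58.1 in R 4.3.3, with Benjamini-Hochberg adjustment at 0.05 over 284 probes. On simulated spots 97% of 100 probes with a planted shift of 0.3 log2 units were recovered, and 1 of 184 others was called. The alternatives were quantile normalization, the median or the percentile over detected probes as scale, normexp with an offset of 50, other rules for detection and probes, the deposited table, leaving out blocks of replicate 2 with at least 10 non-uniform spots, and leaving out each replicate.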

Additional observations from a re-analysis of the deposited data

How the results depend on the processing

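No paired analysis was possible because there was a single group of samples. Of 47 alternative values for the summary results, 38 stayed within their limits. The count of detected members was 83 or 84 under every alternative by gene and 112 of 113 by probe. The number of members with a range above 0.5 log2 units (2) was 1 under quantile normalization, normexp and the deposited table and without the marked blocks of replicate 2, and 0 to 3 when each replicate was left out (1 without replicate 1, 0 without replicate 2 and 3 without replicate 3). The median SD (0.065) was 0.029 to 0.077 when each replicate was left out, and the lowest value was that without replicate 2. The median difference of replicate 2 (0.095) was 0.017 with the median of the array as the scale. With that scale the F test called 1 member probe, Uqcrc2. The change of scale moves all probes of an array by the same amount. Why that amount differed between the arrays was not tested. Ranges of 41 single members were checked in 448 combinations of member and setting. They stayed within their limit in 365 cases and moved in 83, none of which has a direction. Spots near the background, such as Cox8b, carry the least reliable levels.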
